A study of Mus musculus with 14 samples.

Results

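Livers of symptom-free mice that can delete Tet2 in blood cells were compared with livers of healthy littermates, gene by gene. Members were chosen by their labelled phenotype: 5 asymptomatic and 4 control libraries, 9 of the 14 in the series. Controls carried the floxed Tet2 alleles without cre (Tet2fl/fl cre-). Asymptomatic mice carried the same floxed alleles with vav cre (Tet2fl/fl vav cre+) and showed no symptoms. All animals were untreated and 20 weeks old, and each gave 1 total RNA library, made from tissue of the left lobe of the liver. The other 5 libraries came from Tet2fl/fl vav cre+ mice with autoimmune hepatitis (AIH). They entered neither group mean, but shared the low-count filter, the scaling and the estimate of the spread between animals. In fits with a further term, such as sex or the share of unaligned reads, they also shared the estimate of that term. The comparison asks what differs in the liver of Tet2-deleted animals that have not developed the disease.

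TET2 oxidizes methylated cytosine in DNA, and its loss in blood stem cells favours myeloid expansion. The Vav promoter drives cre in blood-forming cells, so hepatocytes, which supply most liver RNA, are not its intended target. Much of hepatocyte transcription follows sex-dependent growth hormone pulses, the daily clock with its feeding rhythm, nutrient receptors such as PPARα, and the load on the endoplasmic reticulum (ER), the compartment that folds secreted proteins. In bulk tissue, fewer cells of a type and less RNA per cell cannot be told apart.

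Depth ranged from 16.0 to 18.9 M (mega) reads counted in genes. Its mean was 16.75 M in asymptomatic and 18.2 M in control libraries (exact two-sided permutation test, p = 0.0476, adjusted over 9 library measures 0.0714). Levels are given as CPM, reads counted in a gene per M reads counted in all genes, after scaling by the trimmed mean of M-values (TMM), in the order control 1 to 4 and then asymptomatic 1 to 5, and are not corrected for gene length. Hepatocyte markers (Alb, Apoa1, Apoa2, Ttr and Hnf4a) summed to 107100 to 147600 CPM in controls and 111000 to 136300 CPM in asymptomatic livers. Xist and 4 Y-linked genes showed that controls 2 and 3 were female, and controls 1 and 4 and all 5 asymptomatic mice male. Sex is therefore partly confounded with the group, and the main results are also given within males (5 against 2). Control 2, control 4 and, in part, asymptomatic 2 were at another phase of the clock: Dbp, a clock output gene, read 121, 0.904, 153 and 3.63 CPM in controls and 106, 32.9, 113, 65.5 and 59.4 CPM in asymptomatic livers. The opposite-phase gene Arntl read 0.585, 21.8, 1.31 and 26.6 CPM and 1.95, 12.3, 1.82, 0.905 and 2.26 CPM. Asymptomatic 2 was closest to control 4 (r = 0.9875 over 12546 genes, chi-square per gene 32.0), while its chi-square per gene to its own group was 126 to 173. Asymptomatic 4 and 5 were the closest pair (chi-square per gene 15.5), still above sampling noise. Of all reads, 8.31%, 4.93%, 7.80%, 8.05% and 9.27% were not aligned in asymptomatic 1 to 5, against 4.88%, 4.17%, 4.75% and 4.89% in controls. This difference of 2.998 percentage points reached the smallest p that 5 against 4 allows (exact two-sided permutation test, p = 0.0159, adjusted over 9 library measures 0.0714). The share of reads not aligned uniquely, at 31.2% to 37.0% against 28.8% to 31.1%, had the same p and adjusted p in that test.

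Tet2 (ENSMUSG00000040943, GRCm38 chromosome 3, 133463679 to 133545139, minus strand) read 8.53, 11.98, 11.6 and 10.8 CPM in controls and 8.06, 9.23, 4.77, 5.49 and 6.52 CPM in asymptomatic livers. All but asymptomatic 2 were below every control. Its log2 fold change was -0.65 ± 0.27 (SE, adjusted p = 0.435). The counts cover the whole gene and hepatocytes keep it, so this only weakly checks the labels. Of the 12 tested genes of DNA methylation and its removal, 2 were lower at unadjusted p under 0.05 (all genes, 4.94%), Tet2 and Idh2, and 1 within males (2.26%). Idh2 is the mitochondrial isocitrate dehydrogenase whose product 2-oxoglutarate TET enzymes require, and it read 123, 121, 178 and 124 CPM in controls and 75.8, 112, 90.4, 62.6 and 59.4 CPM in asymptomatic livers. All 5 asymptomatic livers were below all 4 controls (log2 fold change -0.77 ± 0.21, adjusted p = 0.323).

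Over both sexes none of the 14638 tested genes passed adjusted p under 0.05 in edgeR's quasi-likelihood test (0.0%), and the smallest adjusted p was 0.0977. At unadjusted p under 0.05 there were 1542 genes (10.5%), 819 higher (5.6%) and 723 lower (4.94%) in asymptomatic livers. The 5 asymptomatic livers lay entirely above or below the 4 controls in 355 genes (2.43%), 186 higher (1.27%) and 169 lower (1.15%). DESeq2 called 118 genes and limma-voom with sample quality weights 1299. The count at unadjusted p under 0.05 was 855 without asymptomatic 4, 909 without asymptomatic 5 and 200 with the share of unaligned reads as a term. Within males no gene passed either (0.0%), with 803 genes at unadjusted p under 0.05 (5.49%), 472 higher (3.22%) and 331 lower (2.26%). There 1557 genes did not overlap (10.6%). The 803 became 458 without control 4, 535, 449 and 477 without asymptomatic 1, 4 and 5, 1830 without asymptomatic 2, and 144 with the unaligned share as a term. With asymptomatic 2 left out, 22 genes passed the adjusted threshold within males. Of the 1542 genes, 1513 had the same sign within males and 492 were also at unadjusted p under 0.05 there. When asymptomatic 2, the library closest to a control, was left out, 13 of 14576 genes passed (0.0892%), 9 higher (0.0617%) and 4 lower (0.0274%), and 2665 (18.3%) were at unadjusted p under 0.05. That library was singled out by its own expression, and leaving out the member nearest to the other group widens the difference. The p-values and calls without asymptomatic 2 therefore describe the other libraries and are not tests of the group. No gene below was called in the 2 main comparisons of the groups. Calls over both sexes without asymptomatic 2 are stated at each gene. Calls of named genes in the other fits are given at the end, as counts only.

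Acsm2 (ENSMUSG00000030945, chromosome 7, 119554340 to 119600690, plus strand), a mitochondrial acyl-CoA synthetase for medium-chain acids, led the genes that were higher. It read 0.0585, 0.0565, 0.109 and 0.168 CPM in controls, 7 counts in all, and 2.34, 0.765, 1.19, 2.97 and 2.26 CPM in asymptomatic livers, 148 counts. Even the lowest asymptomatic liver, number 2, was above every control. The log2 fold change was 4.18 ± 0.61 over both sexes (adjusted p = 0.0977), 3.98 ± 0.84 within males (adjusted p = 0.783) and 4.38 ± 0.57 without asymptomatic 2, where it was called (adjusted p = 0.0123). Of the 7 tested acyl-CoA synthetases of its list, Acsm2 was the 1 higher and Acss3 the 1 lower at unadjusted p under 0.05 (all genes, 5.6% and 4.94%). Acss3 read 76.3, 124, 111 and 60.00 CPM against 14.2, 48.6, 44.4, 13.9 and 9.18 CPM, again without overlap (log2 fold change -1.83 ± 0.52, adjusted p = 0.333).

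Meg3 and Rian are maternally expressed long noncoding RNAs of 1 imprinted cluster on chromosome 12. Meg3 (chromosome 12, 109541001 to 109571726, plus strand) was nearly silent in controls at 0, 0.0565, 0.272 and 0.112 CPM and read 2.73, 0.235, 1.76, 6.53 and 3.92 CPM in asymptomatic livers. Rian (chromosome 12, 109603940 to 109661716, plus strand) read 0.175, 0.113, 0.545 and 0 CPM and 2.47, 0.412, 1.57, 7.04 and 3.79 CPM. In both genes asymptomatic 4 was highest and asymptomatic 2 lay within the range of controls. Log2 fold changes were 4.67 ± 0.88 for Meg3 (adjusted p = 0.308) and 3.82 ± 0.87 for Rian (adjusted p = 0.308). Without asymptomatic 2, Meg3 was called at 4.97 ± 0.67 (adjusted p = 0.0123) and Rian was not, at 4.102 ± 0.77 (adjusted p = 0.0525). Of the 15 tested imprinted and fetal liver genes, 2 were higher and 3 lower at unadjusted p under 0.05 (all genes, 5.6% and 4.94%), and Meg3 and Rian were the higher ones. Within males 2 were higher and 2 lower (3.22% and 2.26%), and over both sexes 0 were higher without any single one of asymptomatic 1, 4 and 5. Among the lower ones, Cdkn1c, a cell cycle inhibitor, read 2.46, 1.86, 3.21 and 1.899 CPM in controls and 0.7802, 2.18, 1.25, 0.582 and 0.532 CPM in asymptomatic livers (log2 fold change -1.13 ± 0.403, adjusted p = 0.420).

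Cela1 (chromosome 15, 100674421 to 100687921, minus strand), an elastase named for the pancreas, read 10.1, 5.2, 9.53 and 5.14 CPM in controls and 40.8, 10.7, 51.5, 35.2 and 27.7 CPM in asymptomatic livers. No asymptomatic liver overlapped with a control, although asymptomatic 2 lay just above control 1 (log2 fold change 2.15 ± 0.45, adjusted p = 0.308; 2.37 ± 0.38 and called without asymptomatic 2, adjusted p = 0.0323). Of 6 defining markers of exocrine pancreas, Cela3b and Prss2 were at 0 in all 9 libraries, and the 6 summed to 0.0559 to 0.436 CPM in controls and 0.0588 to 1.29 CPM in asymptomatic livers. Cpa1, Ctrb1 and Pnlip were highest in asymptomatic 4 (0.323, 0.259 and 0.0646 CPM) and Cela2a in asymptomatic 3 (0.941 CPM). Within males the log2 fold change of Cela2a was 2.82 ± 1.11 (adjusted p = 0.828), on 47 counts over the 9 libraries. The part of these markers in the Cela1 value was not tested. In a list of 11 tested elastase and serine protease inhibitor genes that includes Cela1 itself, 6 were higher at unadjusted p under 0.05 (all genes, 5.6%) and none lower, and 7 and 0 within males (3.22%). The 6 became 3 without any single one of controls 1 and 4 and asymptomatic 4. Serpina1c, one of the α1-antitrypsin genes that inhibit elastase, read 1575, 1042, 1101 and 1367 CPM in controls and 2507, 1504, 2662, 2161 and 2228 CPM in asymptomatic livers (log2 fold change 0.799 ± 0.24, adjusted p = 0.378). The Serpina1 genes are near-identical copies that may share or lose reads.

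Obp2a, an odorant-binding lipocalin, read 0.292, 0, 0.0545 and 0.335 CPM in controls and 6.37, 0.118, 5.02, 3.296 and 4.92 CPM in asymptomatic livers. Asymptomatic 2 stayed at the control level and the other 4 were above every control (log2 fold change 4.48 ± 0.98, adjusted p = 0.308; called without asymptomatic 2, 4.797 ± 0.73, adjusted p = 0.0283). Zfp330, a zinc finger gene, varied little among controls at 8.83, 9.78, 10.2 and 9.05 CPM and read 22.9, 11.3, 13.9, 25.98 and 22.3 CPM in asymptomatic livers, with no overlap (log2 fold change 1.02 ± 0.23, adjusted p = 0.308). Abhd5, the coactivator of adipose triglyceride lipase, was as steady in controls at 32.6, 31.3, 32.03 and 32.3 CPM and read 60.7, 33.9, 45.4, 78.8 and 80.04 CPM (log2 fold change 0.899 ± 0.22, adjusted p = 0.308). Both were called without asymptomatic 2, at 1.17 ± 0.19 and 1.05 ± 0.18 (adjusted p = 0.0456 and 0.0456). Ngdn, a ribosome biogenesis gene, was also called there (1.16 ± 0.18, adjusted p = 0.0283) but overlapped over all libraries, at 13.3, 13.8, 13.4 and 13.5 CPM against 30.4, 10.4, 24.6, 34.5 and 31.5 CPM. Qars, the glutaminyl-tRNA synthetase, shows how small a difference led the ranking: 41.9, 40.5, 40.6 and 42.1 CPM in controls and 54.4, 49.8, 56.9, 66.9 and 63.9 CPM in asymptomatic livers, without overlap (log2 fold change 0.5 ± 0.12, adjusted p = 0.308).

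**Figure D1:**
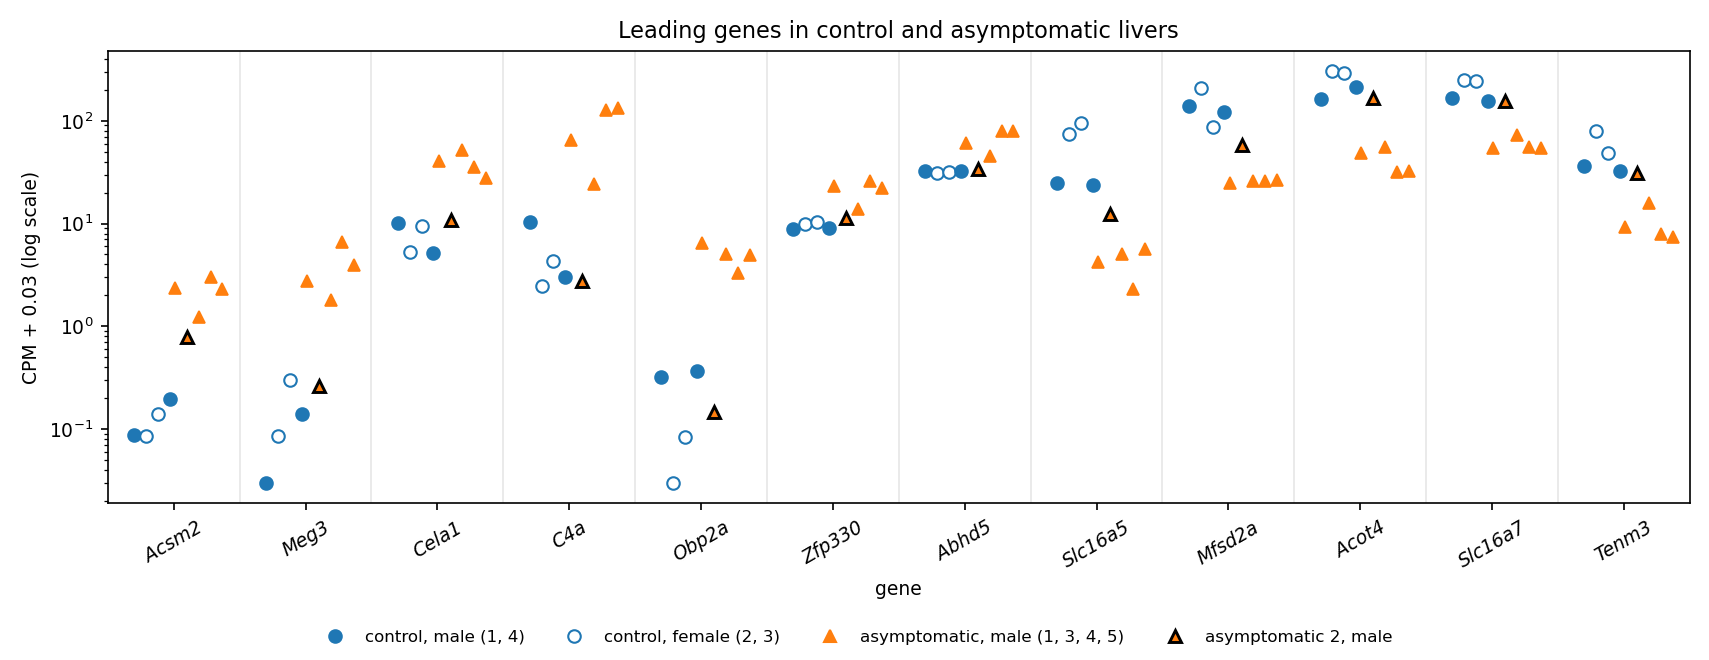
Levels of 12 leading genes in each library, in CPM on a log scale, with 0.03 CPM added so that a level of 0 can be drawn. Circles are controls (filled male, open female), triangles asymptomatic livers, and the asymptomatic 2 triangle is outlined in black. Of the asymptomatic livers it lies nearest to the controls in all 12 genes, and within their range in Meg3, C4a, Obp2a, Acot4 and Slc16a7.

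Among the leading lower genes, Slc16a5, a monocarboxylate transporter, read 24.6, 74.9, 95.3 and 23.6 CPM in controls and 4.16, 12.5, 5.02, 2.26 and 5.66 CPM in asymptomatic livers. All asymptomatic livers were below all controls, and female controls were the highest (log2 fold change -3.202 ± 0.67, adjusted p = 0.308; -2.02 ± 0.47 within males, adjusted p = 0.828). Abcc4, an export pump for bile acids and cyclic nucleotides, read 6.84, 12.04, 21.2 and 5.08 CPM against 2.41, 4.47, 2.57, 3.68 and 3.13 CPM, also without overlap (log2 fold change -1.79 ± 0.36, adjusted p = 0.308; -0.87 ± 0.31 within males). Mfsd2a, the transporter of lysophosphatidylcholine that carries docosahexaenoic acid, read 138, 207, 86.5 and 123 CPM in controls and 24.6, 58.4, 26.04, 25.8 and 26.6 CPM in asymptomatic livers. Its groups did not overlap, and its value was nearly the same over both sexes (-2.103 ± 0.54, adjusted p = 0.309) and within males (-2.02 ± 0.38, adjusted p = 0.655). Slc16a7, another monocarboxylate transporter, read 165, 249.8, 246 and 155 CPM against 54.9, 157, 72.4, 55.00 and 54.9 CPM. Asymptomatic 2 reached the control range and the other 4 did not, and the gene was called without it (-1.78 ± 0.28, adjusted p = 0.0323, against -1.37 ± 0.35 and adjusted p = 0.308 with it).

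Tenm3, a cell adhesion protein of the teneurin family, read 36.2, 80.1, 48.9 and 32.3 CPM in controls and 9.17, 30.9, 15.8, 7.88 and 7.32 CPM in asymptomatic livers, and Emp2, an epithelial membrane protein, 18.00, 24.5, 28.7 and 23.6 CPM and 7.35, 18.8, 11.4, 4.72 and 5.06 CPM. Tenm3 did not overlap between groups and Emp2 did through asymptomatic 2. Without asymptomatic 2 both were called, at -2.296 ± 0.39 and -1.73 ± 0.27 (adjusted p = 0.0456 and 0.0283). Osbpl3, an oxysterol-binding protein, led the lower genes within males together with Mfsd2a, at 36.1, 1.13, 2.07 and 9.11 CPM in controls and 0.845, 2.06, 5.08, 1.29 and 1.33 CPM in asymptomatic livers. The female controls lay among the asymptomatic livers, and the male controls differed widely from each other (log2 fold change -3.404 ± 0.59 within males, adjusted p = 0.427). Of 20 tested immediate early genes, 3 were lower at unadjusted p under 0.05 (all genes, 4.94%) and none higher, and 1 was lower within males (2.26%). Myc, the growth-promoting transcription factor, read 3.74, 5.03, 3.98 and 3.13 CPM in controls and 2.28, 2.71, 2.01, 1.87 and 2.66 CPM in asymptomatic livers, and Jun, a subunit of AP-1, 19.7, 19.4, 20.1 and 15.03 CPM and 7.997, 9.0, 6.02, 13.5 and 14.5 CPM. Neither overlapped between groups (log2 fold changes -0.78 ± 0.21 and -0.86 ± 0.31, adjusted p = 0.316 and 0.421).

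Most genes of the unfolded protein response, by which chaperones are made when proteins misfold in the ER, were high in asymptomatic 1, 4 and 5 and at the control level in asymptomatic 2. Of 25 tested ER stress genes 14 were higher at unadjusted p under 0.05 (all genes, 5.6%) and none lower (4.94%), with a median log2 fold change of 0.84 against 0.00 over all genes tested. Within males 8 were higher (3.22%) and none lower, with a median of 0.92. Without asymptomatic 2, 19 were higher (all genes, 8.73%), with a median of 1.03. None was past the adjusted threshold in any of these, and in none of the 25 did all asymptomatic livers lie above all controls. The count over both sexes was 9 without asymptomatic 1, 8 without asymptomatic 5 and 8 with sex as a term, and within males it was 4 without either of asymptomatic 1 and 5, 13 without asymptomatic 2 and 0 without control 4. With the share of unaligned reads as a term the direction turned, with medians of -0.06 over both sexes and -0.24 within males and 0 members higher; that share itself differed between the groups, and its part in the result cannot be told apart from the group's.

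Hspa5, the ER chaperone BiP that holds the stress sensors inactive, read 805, 644, 558 and 356 CPM in controls and 3930, 414, 544, 2311 and 2695 CPM in asymptomatic livers. Asymptomatic 1, 4 and 5 were far above every control, and asymptomatic 2 and 3 within their range (log2 fold change 1.74 ± 0.56, adjusted p = 0.418; -0.170 with the unaligned share as a term). Hyou1, a co-chaperone that exchanges its nucleotide, had the same 3 livers above every control, at 137, 115, 97.99 and 74.7 CPM and 957, 86.00, 85.5, 575 and 574 CPM (2.1 ± 0.67, adjusted p = 0.414). Creld2, a secreted disulfide isomerase-like protein, read 17.5, 19.8, 10.5 and 11.9 CPM in controls and 300.0, 14.7, 12.8, 142 and 164 CPM in asymptomatic livers, with asymptomatic 2 and 3 again at the control level (3.08 ± 0.79, adjusted p = 0.309). Sdf2l1, a cofactor of BiP, read 10.5, 6.39, 9.31 and 4.47 CPM and 126, 5.35, 16.9, 55.97 and 56.1 CPM (2.77 ± 0.69, adjusted p = 0.308). Here asymptomatic 3 was above every control too. Manf, a secreted ER stress protein, read 61.7, 29.7, 35.1 and 20.00 CPM and 318, 20.5, 53.8, 189 and 204 CPM (2.099 ± 0.63, adjusted p = 0.378).

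The sensors and transcription factors upstream were less uniform. Xbp1, the transcription factor that the sensor IRE1 activates by splicing, read 176, 174, 172 and 125 CPM in controls and 388, 163, 273, 613 and 829 CPM in asymptomatic livers. It was above every control in all but asymptomatic 2 (log2 fold change 1.49 ± 0.38, adjusted p = 0.309). Ern1, which encodes IRE1, read 90.7, 78.5, 65.3 and 62.96 CPM against 122, 89.4, 76.2, 205 and 245 CPM (0.99 ± 0.36, adjusted p = 0.423). Atf6, the sensor cleaved in the Golgi, read 131, 125, 96.3 and 125 CPM against 142, 123, 75.5, 144 and 115 CPM, and Atf4, the effector of the PERK branch, 67.5, 65.3, 92.5 and 67.03 CPM against 77.4, 69.5, 91.05, 74.5 and 72.4 CPM. Both overlapped between groups. Bhlha15 (MIST1), a transcription factor of secretory cells that XBP1 is known to induce, was nearly silent in controls at 0.175, 0.0565, 0.163 and 0 CPM and read 6.89, 0.412, 0.0628, 8.98 and 6.52 CPM in asymptomatic livers (5.44 ± 1.32, adjusted p = 0.308). Asymptomatic 1, 4 and 5 alone held it above 1 CPM. In the same 3 livers the cytosolic heat shock protein Hsph1 was high, at 274, 66.5, 25.2, 252 and 313 CPM against 101, 80.2, 40.1 and 61.4 CPM in controls (1.399 ± 0.61, adjusted p = 0.455). Of 14 tested heat shock genes 4 were higher (all genes, 5.6%) and none lower at unadjusted p under 0.05. Within males none was either, and over both sexes 0 were higher without any single one of control 4 and asymptomatic 1 and 4, and 1 without any of controls 2 and 3 and asymptomatic 5.

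**Figure D2:**
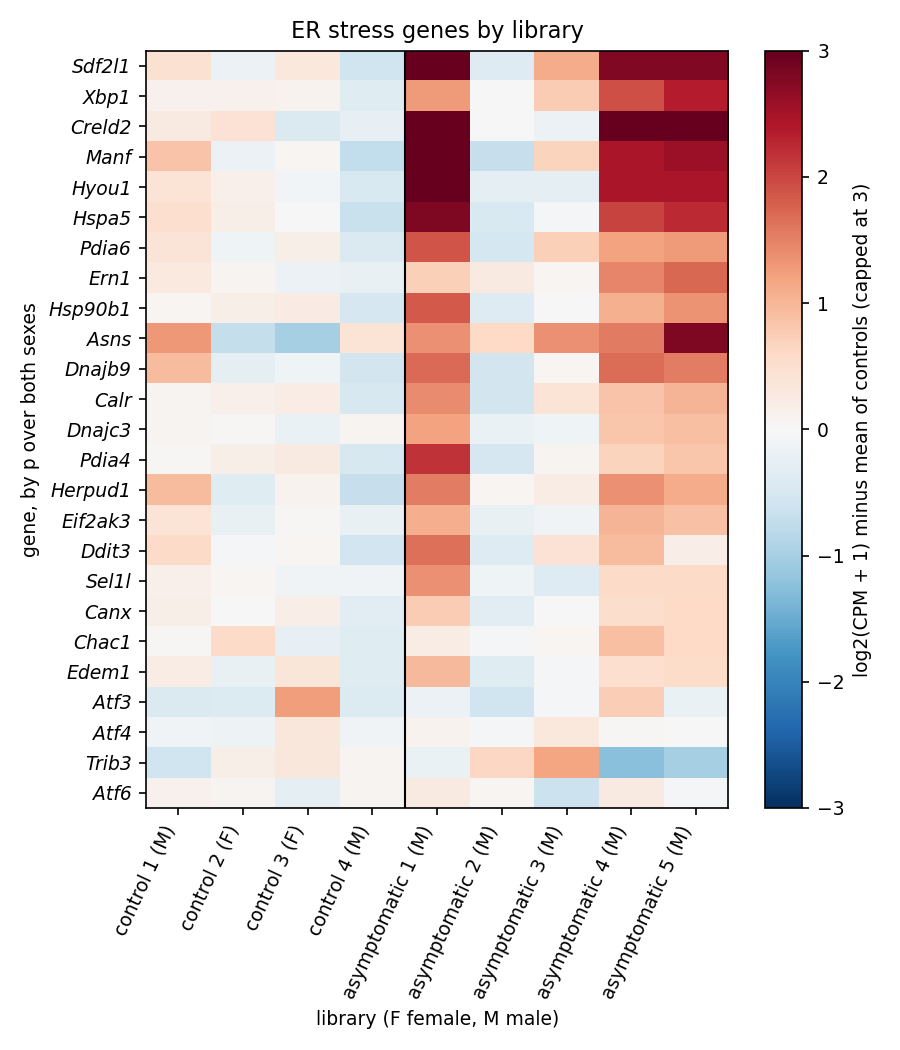
Log2 of CPM + 1 of each tested ER stress gene in each of the 9 libraries, minus the mean of the 4 controls, as a colour. Genes are ordered by p in the comparison over both sexes. Asymptomatic 1, 4 and 5 are red in the upper rows, and asymptomatic 2 is at the colour of the controls.

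Promoters are shown because many genes of this response carry the ER stress response element (ERSE), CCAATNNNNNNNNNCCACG, to which ATF6 with NF-Y is known to bind. It was searched on both strands in the 250 bases upstream of the start site (RefSeq, GRCm38.p6). It was found in 37 of 32851 promoters of that length (0.113%), which belong to 35 of 27025 genes. Among the 22 list members with a promoter in the table it was in 7, namely Hspa5, Hsp90b1, Dnajc3, Creld2, Pdia6, Calr and Canx. Because genes of this response are known to carry it, its presence in the list was foreseen and is not a result. Of these 7 all but Canx were among the 14 genes higher at unadjusted p under 0.05 (whole list, 14 of 25, all genes, 5.6%). Whether the element has a part in the difference was not tested. The shorter ERSE-II, ATTGGNCCACG, was in 10 promoters (0.0304%) and in 1 member, Herpud1, which read 574, 229, 318 and 182 CPM in controls and 862, 310.3, 344, 769.6 and 643 CPM in asymptomatic livers. A match is a run of letters and not a measured binding site. The promoters of the 4 members with the smallest p that hold the element follow, each 5′ to 3′ on the strand of the gene, with the element in capitals.
Creld2 (chr15:88819396-88819645, plus strand): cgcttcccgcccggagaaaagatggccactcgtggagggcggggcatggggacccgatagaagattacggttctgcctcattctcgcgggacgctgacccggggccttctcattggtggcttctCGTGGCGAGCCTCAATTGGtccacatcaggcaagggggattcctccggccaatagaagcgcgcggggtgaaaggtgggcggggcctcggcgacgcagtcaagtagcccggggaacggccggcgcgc
Hspa5 (chr2:34771840-34772089, plus strand): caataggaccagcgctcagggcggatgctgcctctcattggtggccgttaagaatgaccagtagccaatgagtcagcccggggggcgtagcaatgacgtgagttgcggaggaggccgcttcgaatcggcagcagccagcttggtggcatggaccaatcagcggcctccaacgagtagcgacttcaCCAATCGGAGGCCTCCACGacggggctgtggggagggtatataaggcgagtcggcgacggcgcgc
Pdia6 (chr12:17266339-17266588, plus strand): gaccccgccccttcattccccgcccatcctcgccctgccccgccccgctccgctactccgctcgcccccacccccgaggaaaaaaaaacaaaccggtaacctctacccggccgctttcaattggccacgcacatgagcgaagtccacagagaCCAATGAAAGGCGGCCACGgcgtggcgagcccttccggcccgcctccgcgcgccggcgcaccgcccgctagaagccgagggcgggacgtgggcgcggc
Hsp90b1 (chr10:86705445-86705694, minus strand): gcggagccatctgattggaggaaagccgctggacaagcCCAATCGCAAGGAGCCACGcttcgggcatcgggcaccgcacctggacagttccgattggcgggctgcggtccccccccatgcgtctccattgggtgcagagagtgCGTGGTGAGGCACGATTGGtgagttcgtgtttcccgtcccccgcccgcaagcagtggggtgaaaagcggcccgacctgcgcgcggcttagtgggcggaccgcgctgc
Hspa5 had 1 element on the strand of the gene, ending 46 bases upstream of the start site, and Pdia6 had 1 ending 79 bases upstream. Creld2 had 1 on the opposite strand, ending 107 bases upstream. Hsp90b1 had 2, on both strands, 193 and 88 bases upstream. Pdia6, a protein disulfide isomerase, read 207, 143, 178 and 115 CPM in controls and 579, 108, 258, 364 and 381 CPM in asymptomatic livers (log2 fold change 1.07 ± 0.38, adjusted p = 0.420). Hsp90b1, the ER form of HSP90, read 732, 791, 831 and 491 CPM and 2511, 536, 696, 1462 and 1776 CPM (0.97 ± 0.38, adjusted p = 0.430). In both, asymptomatic 1, 4 and 5 exceeded every control. Asymptomatic 3 exceeded every control in Pdia6 only.

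Genes with a female bias were low in asymptomatic livers over both sexes, where the asymptomatic mice are male and 2 of the 4 controls female. Of 34 tested genes known to be higher in female mouse liver, 31 were lower in asymptomatic livers at unadjusted p under 0.05 (all genes, 4.94%) and none higher, with a median log2 fold change of -5.93. Within males 5 were lower and 1 higher (all genes, 2.26% and 3.22%), with a median of -0.54. With sex as a term, 7 were lower over both sexes (median -0.62), and limma-voom placed 8 and the fit with the unaligned share 1 at that threshold. Sult2a1, a sulfotransferase of steroids and bile acids, read 0.234, 655, 677 and 0.335 CPM in controls and 0.2601, 1.06, 0.251, 0.452 and 0.133 CPM in asymptomatic livers. Both female controls stood far above every male of either group (-9.55 ± 2.16 over both sexes, adjusted p = 0.308; 0.61 ± 0.65 within males, adjusted p = 0.865). Between female and male controls 68 genes were called (0.465%), 37 higher in females (0.253%) and 31 lower (0.212%), among only 2 animals of each sex. That count was 36, 42 and 43 without controls 1, 3 and 4.

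A few of these genes were also lower in asymptomatic males than in control males. Slc22a27, an organic anion transporter, read 5.904, 35.95, 81.3 and 1.84 CPM in controls and 0.0650, 0.941, 1.44, 0.194 and 0.1996 CPM in asymptomatic livers. All 5 asymptomatic livers were below both male controls (-2.73 ± 0.68 within males, adjusted p = 0.828). Its neighbour on chromosome 19, Slc22a26, read 3.27, 229, 216 and 4.86 CPM and 0.715, 3.06, 1.44, 0.194 and 0.466 CPM, again with all 5 below both male controls (-1.77 ± 0.58 within males, adjusted p = 0.828). Cd36, a fatty acid transporter, read 153, 488, 357 and 114 CPM in controls and 38.4, 89.5, 116, 53.6 and 48.2 CPM in asymptomatic livers. Asymptomatic 3 lay above control 4, and the others below all controls (-0.95 ± 0.38 within males, adjusted p = 0.828).

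Of 24 tested genes known to be higher in male mouse liver, 12 were higher at unadjusted p under 0.05 (all genes, 5.6%) and none lower, with a median of 1.88. Within males these counts were 12 (3.22%) and 0, with a median of 1.10, but only 2 were higher without control 4. With the unaligned share as a term 0 were higher in either comparison, the median over both sexes turned to -0.38, and the values within males turned for C4a (-1.06), Cyp7b1 (-0.142) and Ugt2b38 (-0.512), which are described next. C4a, the sex-limited protein of the complement C4 locus, read 10.3, 2.43, 4.303 and 2.96 CPM in controls and 65.02, 2.71, 24.2, 128 and 132 CPM in asymptomatic livers. Asymptomatic 2 was at the control level and the other 4 were above every control (3.82 ± 0.83 over both sexes, adjusted p = 0.308; 3.41 ± 1.11 within males, adjusted p = 0.828; called without asymptomatic 2, 4.13 ± 0.56, adjusted p = 0.0123). C4a is nearly identical to C4b and may share reads with it. Cyp7b1, the oxysterol 7α-hydroxylase of the alternative bile acid pathway, read 187, 21.6, 49.1 and 114 CPM and 871, 124, 423, 1057 and 879 CPM, with asymptomatic 2 between the male controls (2.16 ± 0.71 within males, adjusted p = 0.828). Ugt2b38, a glucuronosyltransferase, read 5.495, 0.283, 0.218 and 0.559 CPM and 33.7, 1.82, 13.2, 95.9 and 96.5 CPM. Asymptomatic 4 and 5 were highest and asymptomatic 2 again between the male controls (3.996 ± 1.31 within males, adjusted p = 0.828). Not every male-biased gene followed: Cyp4a12a, the male arachidonic acid hydroxylase, read 184, 0.565, 0.381 and 166 CPM in controls and 142, 146, 105, 209.8 and 154 CPM in asymptomatic livers (-0.21 ± 0.296 within males).

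Major urinary proteins (Mup), pheromone carriers that male liver secretes in bulk, took 0.910%, 0.0667%, 0.111% and 0.861% of gene counts in controls 1 to 4 and 2.12%, 0.872%, 1.69%, 1.77% and 2.05% in asymptomatic 1 to 5. Asymptomatic 2 lay at the male controls and the other 4 above them (difference of means over both sexes 1.213 percentage points, exact two-sided permutation test, p = 0.0317, adjusted over 9 library measures 0.0714). Of 14 tested Mup genes 10 were higher at unadjusted p under 0.05 within males (3.22%) and none lower, with a median of 2.29. Over both sexes 4 were higher (all genes, 5.6%) and none lower. Within males 6 were higher without control 4, and 2 with the unaligned share as a term (median 0.26). Mup7 read 365, 2.88, 15.5 and 411 CPM in controls and 3989, 1037, 2700, 4195 and 4520 CPM in asymptomatic livers, with every asymptomatic liver above every control (3.08 ± 0.66 within males, adjusted p = 0.783). Mup1 kept the same order at 4.09, 0.226, 0.4902 and 4.36 CPM and 51.04, 7.12, 31.1, 49.3 and 56.5 CPM (3.204 ± 0.64 within males, adjusted p = 0.783). Mup20, the pheromone darcin, overlapped with male controls, at 1541, 11.4, 12.9 and 1972 CPM and 2687, 1186, 1833, 2211 and 2589 CPM (0.26 ± 0.64 within males, adjusted p = 0.943; -0.627 with the unaligned share as a term). The Mup genes are near-identical copies, so the split of reads among them is uncertain. Reads that did not align uniquely were 28.8% to 31.1% in controls and 31.2% to 37.0% in asymptomatic livers, and their part in the Mup values was not tested.

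**Figure D3:**
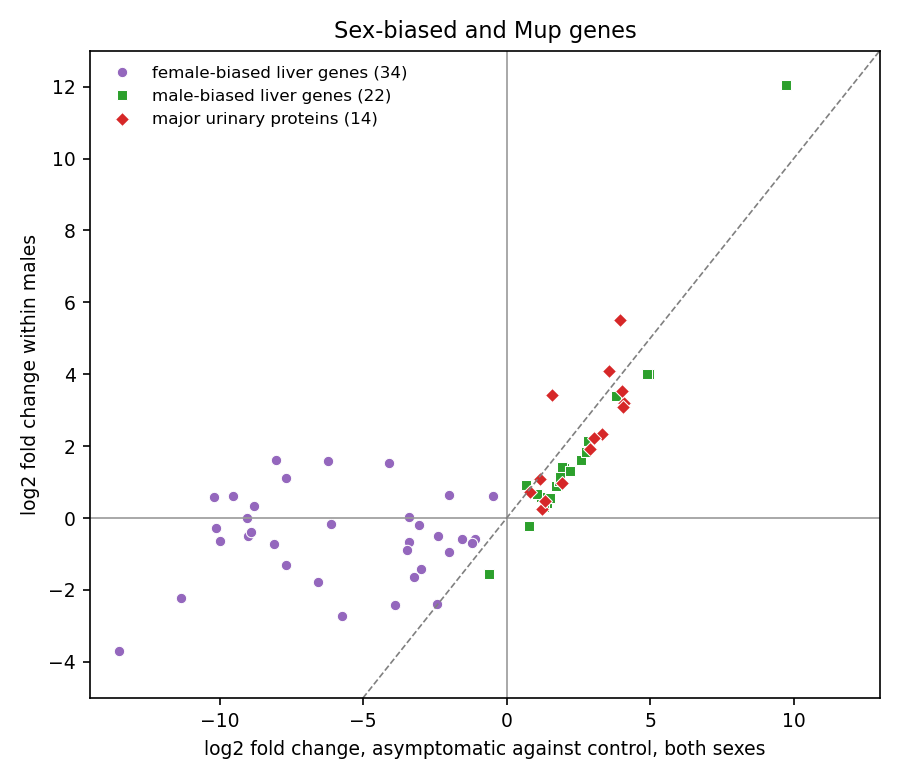
Log2 fold change over both sexes (horizontal) against that within males (vertical) for the tested female-biased, male-biased and Mup genes, 1 point per gene, with the line of equal values dashed. Female-biased genes spread farther along the horizontal than along the vertical axis, and the Mup genes are above 0 on both.

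Genes of fatty acid oxidation under PPARα, the fasting receptor, were lower in 4 asymptomatic livers than in most controls, and in some of them asymptomatic 2 stood with controls 2 and 4. Of 22 tested PPARα and fasting targets, 5 were lower at unadjusted p under 0.05 (all genes, 4.94%) and none higher (median -0.77), and within males 1 was lower (2.26%, median -0.95). Without asymptomatic 2, 13 were lower (all genes, 9.56%) and none higher (median -1.20). Only 1 was lower without control 2, 3 without any single one of control 4 and asymptomatic 1, 3, 4 and 5, and 2 with the unaligned share or the clock ratio below as a term. Acot4, a peroxisomal acyl-CoA thioesterase, read 164, 303, 289 and 214 CPM in controls and 48.2, 165, 55.03, 32.05 and 32.5 CPM in asymptomatic livers. Asymptomatic 2 reached control 1, and the other 4 lay far below all controls (-1.87 ± 0.44, adjusted p = 0.308; called without asymptomatic 2, -2.53 ± 0.305, adjusted p = 0.0123). Abcd2, a peroxisomal fatty acid importer, read 66.7, 148, 163 and 48.2 CPM and 5.72, 56.7, 27.04, 5.36 and 4.26 CPM with asymptomatic 2 again within the control range (-2.42 ± 0.68, adjusted p = 0.333).

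Other targets split the controls themselves. Cyp4a14, a fatty acid hydroxylase, read 434, 10740, 651 and 8541 CPM in controls and 9.56, 7851, 54.4, 30.6 and 4.06 CPM in asymptomatic livers. Controls 2 and 4 and asymptomatic 2 were far above controls 1 and 3, and the other 4 asymptomatic livers were lowest (-1.68 ± 1.705, adjusted p = 0.749). Ehhadh, the peroxisomal bifunctional enzyme, read 449.6, 3648, 513 and 3832 CPM and 251, 2964, 283, 253 and 209 CPM with the same split. Pdk4, a kinase that spares glucose, read 14.4, 56.1, 10.3 and 56.4 CPM and 3.12, 16.9, 5.77, 3.296 and 2.79 CPM (-2.42 ± 1.09, adjusted p = 0.458). These 3 libraries are those in which Dbp was low and Arntl high, as given above. The clock ratio, log2 of Dbp to Arntl, entered 1 fit as a term, and the part of the sampling phase in these genes was not tested beyond it. Of 18 tested mitochondrial fatty acid oxidation genes 4 were lower (all genes, 4.94%), 11 without asymptomatic 2 (9.56%), 1 without any single one of controls 2 and 4 and asymptomatic 1, 4 and 5, and 0 within males. None was higher. Pck1, the key enzyme of glucose synthesis, read 3169, 4384, 2166 and 2931 CPM in controls and 2493, 1778, 1441, 1885 and 1674 CPM in asymptomatic livers. All asymptomatic livers except number 1 were below every control (-0.77 ± 0.24, adjusted p = 0.402).

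**Figure D4:**
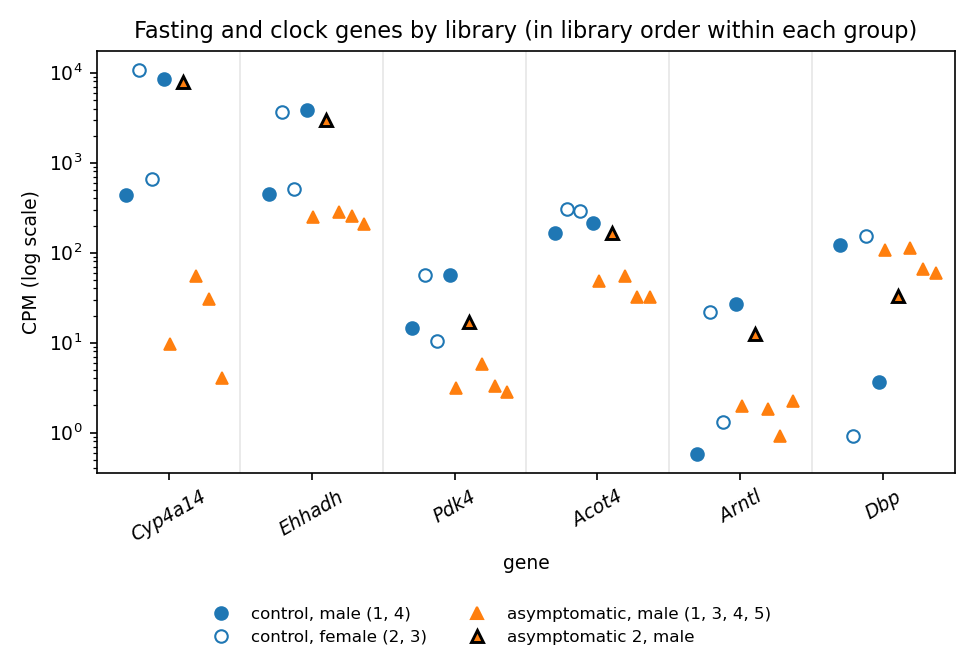
Levels of 6 genes in each library, in CPM on a log scale. Cyp4a14, Ehhadh and Arntl are high in controls 2 and 4 and asymptomatic 2, Pdk4 in controls 2 and 4, Dbp is higher in the other 6 libraries, and Acot4 is low in asymptomatic 1, 3, 4 and 5.

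Secreted defence proteins of hepatocytes were higher in part. Of 29 tested complement genes 6 were higher at unadjusted p under 0.05 (all genes, 5.6%) and none lower, with a median of 0.21, and 3 without asymptomatic 4. Within males 4 were higher (3.22%) and none lower. The 6 were mostly parts of the membrane attack complex. C8b, a chain of C8, read 266, 84.95, 53.6 and 164 CPM in controls and 621, 241, 388, 779.5 and 809 CPM in asymptomatic livers. Asymptomatic 2 lay between the male controls, and females were lowest (2.0 ± 0.502, adjusted p = 0.308; 1.403 ± 0.44 within males). C9, the pore-forming component, read 426, 103, 169.5 and 412 CPM and 888, 392, 827, 831 and 847 CPM, with asymptomatic 2 below both male controls and the other 4 above every control (1.45 ± 0.38, adjusted p = 0.309; 0.85 ± 0.31 within males, and -0.023 there with the unaligned share as a term). C6 and C8b are also on the male-biased list. Hc, which encodes C5 and did not differ so by sex, read 876, 846, 875 and 932 CPM and 1345, 1026, 912, 1512 and 1564 CPM, with asymptomatic 3 within the control range (0.53 ± 0.199, adjusted p = 0.423).

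Acute phase genes are those that cytokines such as IL-6 induce in hepatocytes. Of 28 tested, 4 were higher (all genes, 5.6%) and none lower at unadjusted p under 0.05, and 6 (3.22%) and 0 within males (medians 0.33 and 0.79). The 4 became 12 with sex as a term, 1 without control 4 and 2 without any single one of control 1 and asymptomatic 4 and 5. All asymptomatic mice were male, so the sex term was estimated from controls and AIH livers. The only male AIH liver, AIH 4, read 67.0 CPM of Saa1, described next, against 803 to 1485 CPM in the female ones. The part of this in the 12 was not tested. Saa1, serum amyloid A, read 24.1, 33.3, 101 and 27.6 CPM in controls and 53.2, 42.4, 92.7, 367 and 435 CPM in asymptomatic livers. Asymptomatic 4 and 5 exceeded every control, and the female control 3 exceeded the other 3 asymptomatic livers (2.09 ± 0.85, adjusted p = 0.435; 2.94 ± 0.94 within males, adjusted p = 0.828). Steap4, a metalloreductase induced by inflammation, read 172, 233, 207 and 103 CPM and 257, 113, 117, 1098 and 1048 CPM (1.56 ± 0.64, adjusted p = 0.435). Serpina3k, a serine protease inhibitor and an abundant plasma protein gene, was above every control in all 5, at 6254, 8561, 1915 and 8312 CPM and 15530, 11180, 10500, 19820 and 18570 CPM (1.27 ± 0.43, adjusted p = 0.420). Lbp, which binds bacterial lipopolysaccharide, was in the other direction without passing, at 48.05, 226, 98.8 and 153 CPM and 55.6, 139.8, 57.9, 68.8 and 48.6 CPM (-0.83 ± 0.41, adjusted p = 0.493; 0.252 with the unaligned share as a term).

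T cell transcripts were few in both groups. Defining T cell markers (Cd3e, Cd3g and Trac) summed to 1.05 to 2.83 CPM in controls and 0.969 to 2.12 CPM in asymptomatic livers, and none of the 20 tested T cell genes was higher or lower at unadjusted p under 0.05. Cd4, the helper T cell coreceptor that macrophages also carry at low level, read 1.17, 1.07, 0.654 and 1.06 CPM in controls and 1.82, 1.76, 1.63, 1.29 and 1.86 CPM in asymptomatic livers. The groups did not overlap, and the difference was far from the threshold (0.76 ± 0.64, adjusted p = 0.692; -0.103 with the unaligned share as a term). Cd8a read 0.292, 0.283, 0.545 and 0.223 CPM and 0.455, 0.588, 0.314, 0.129 and 0.133 CPM, with overlap. Ifng, the defining cytokine of Tc1 cells, was too low to be tested, at 0, 0, 0.163 and 0 CPM and 0.0650, 0, 0.0628, 0.129 and 0 CPM. Tnf read 0.234, 0.0565, 0.163 and 0.279 CPM and 0.195, 0.118, 0.126, 0.323 and 0.599 CPM (0.54 ± 0.63, adjusted p = 0.791). Of 18 tested genes of CD8 Tc1 and cytotoxic effector cells, 1 was lower and none higher, a share close to that of all genes (4.94%). The gene was Prf1, the pore protein perforin, at 0.234, 1.24, 0.654 and 0.838 CPM and 0.2601, 0.353, 0.377, 0 and 0.1996 CPM (-1.61 ± 0.59, adjusted p = 0.423).

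Macrophage markers (Adgre1, Csf1r and Cd68) summed to 110.5 to 249.4 CPM in controls and 125.8 to 142.2 CPM in asymptomatic livers. Kupffer cell markers (Clec4f, Timd4 and Vsig4) summed to 160.6 to 349.4 CPM and 207.8 to 279.0 CPM. Of 24 tested monocyte and macrophage genes 1 was lower and none higher over both sexes (all genes, 4.94% and 5.6%). Of 15 Kupffer cell genes 1 was higher (all genes, 5.6%) and none lower, C6, the complement gene counted above. Both counts were close to the share over all genes. Within males 3 of each list were higher (all genes, 3.22%) and none lower. Timd4, a phosphatidylserine receptor of resident Kupffer cells, read 8.48, 12.9, 19.7 and 7.26 CPM in controls and 12.9, 9.82, 17.3, 16.7 and 17.6 CPM in asymptomatic livers. Its male controls were below all asymptomatic livers, and its female controls were not (0.296 ± 0.36 over both sexes, 0.91 ± 0.36 within males, adjusted p = 0.828). None of the 18 tested neutrophil and granulocyte precursor genes, the 11 genes of MHC class II presentation or the 28 type I interferon genes was at unadjusted p under 0.05 over both sexes. Within males 26 of the 28 type I interferon genes had a log2 fold change above 0 (median 0.49), against 7701 of 14638 over all genes. None of the 28 was at unadjusted p under 0.05 there, and in 8 all asymptomatic livers were above both controls (all genes, 5.49%). Over both sexes 18 of the 28 were above 0 (median 0.09), and their median in female against male controls was 0.64. Among neutrophil genes, 1 was higher and 1 lower within males (all genes, 3.22% and 2.26%). Of 25 genes of MHC class I and interferon gamma 2 were lower over both sexes (4.94%), and 0 within males. Irgm2, an interferon-inducible GTPase, read 72.2, 97.5, 102 and 88.4 CPM in controls and 38.9, 70.7, 66.6, 46.01 and 50.6 CPM in asymptomatic livers, without overlap (-0.72 ± 0.29, adjusted p = 0.435). Erythroid markers (Hba-a1, Hbb-bs and Alas2) summed to 139.2 to 315.7 CPM in controls and 272.9 to 766.2 CPM in asymptomatic livers, higher in 4 of 5 asymptomatic livers than in every control, and their part in the other results was not tested. Cyp1a1, the target of the aryl hydrocarbon receptor that gut bacterial metabolites activate, read 1.64, 0.735, 1.14 and 1.06 CPM in controls and 0.845, 1.41, 1.32, 1.099 and 1.198 CPM in asymptomatic livers, with overlap.

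Cytosolic ribosomal protein genes differed by little. Of 80 tested 13 were higher at unadjusted p under 0.05 (all genes, 5.6%) and none lower, 73 had a log2 fold change above 0, and in 19 all asymptomatic livers were above all controls (all genes, 1.27%). The median log2 fold change was 0.30, and 0.28 within males, where 3 were higher and 1 lower (3.22% and 2.26%). The 13 became 4, 5, 2 and 5 without control 3, control 4, asymptomatic 3 and asymptomatic 5, and 28 with only the 9 libraries in the fit. This list holds near-identical copies whose reads may be shared. Of 27 tested proliferation genes 4 were higher (5.6%) and none lower, and 2 and 0 within males (3.22%). Mcm6, a subunit of the replicative helicase, read 5.61, 2.996, 3.81 and 3.52 CPM in controls and 7.997, 4.29, 6.15, 10.1 and 9.58 CPM in asymptomatic livers (0.93 ± 0.27, adjusted p = 0.346).

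A separate set of genes was read in some libraries and nearly absent from others, regardless of the labelled group. The search took genes whose sorted levels had a gap of at least 16-fold (on CPM + 0.1) with all libraries below it under 1 CPM and at least 2 libraries on each side. This rule was chosen after the values were seen. It found 24 genes, of which 19 divided by sex. The other 5 all divided the same way: controls 1 and 4 and asymptomatic 2 on 1 side, and the remaining 6 libraries on the other. Of these 5, 4 lie on chromosome 14, which holds 3.31% of tested genes. Slc39a2 (chromosome 14, 51892889 to 51896745, plus strand), a zinc importer, read 0.351, 15.2, 33.2 and 0.223 CPM in controls and 19.2, 0.353, 21.02, 12.99 and 10.7 CPM in asymptomatic livers. Rps3a3 (chromosome 13, 108670603 to 108671397, plus strand), a ribosomal protein-like gene, read 0.234, 52.4, 45.1 and 0.223 CPM and 61.2, 0.118, 86.1, 63.01 and 72.2 CPM with the same split, and is a near-identical copy of Rps3a1 that may exchange reads with it. The opposite split was seen in Lrit1 (chromosome 14, 37054830 to 37064946, plus strand) at 27.3, 0.396, 0.381 and 19.9 CPM and 0.2601, 11.7, 0.251, 0 and 0 CPM, in its neighbour Lrit2 (chromosome 14, 37067929 to 37073743, plus strand) at 8.18, 0, 0 and 6.65 CPM and 0, 4.35, 0.0628, 0 and 0 CPM, and in Cebpe (chromosome 14, 54710360 to 54712174, minus strand), a granulocyte transcription factor gene, at 5.904, 0, 0.0545 and 5.53 CPM and 0, 3.53, 0.0628, 0 and 0 CPM. Slc39a2 and Rps3a3 were at most 0.505 and 0.389 CPM in all 5 AIH livers. In the same livers Lrit1 read 1.28 to 16.8 CPM, Lrit2 0.233 to 4.59 CPM and Cebpe 3.69 to 12.4 CPM. Because both male controls and 4 of 5 asymptomatic males are on opposite sides, Slc39a2 and Rps3a3 ranked high within males (5.45 ± 1.25 and 7.91 ± 1.69, adjusted p = 0.828 and 0.783). Slc39a4 (chromosome 15, 76612383 to 76617384, minus strand), another zinc importer and the gene with the smallest p within males, read 10.9, 42.3, 65.8 and 16.2 CPM in controls and 64.9, 33.9, 46.6, 76.1 and 57.95 CPM in asymptomatic livers (2.04 ± 0.34 within males, adjusted p = 0.427). Its female controls lay within the range of asymptomatic livers.

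**Figure D5:**
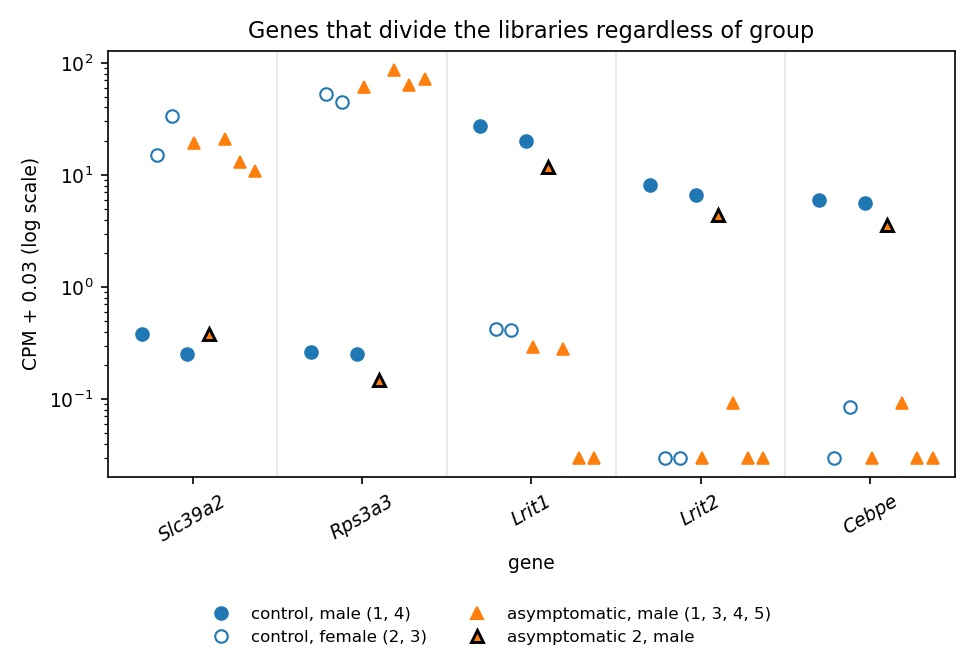
Levels of 5 genes that divide the 9 libraries regardless of group or sex, in CPM on a log scale, with 0.03 CPM added. Slc39a2 and Rps3a3 are near 0 in controls 1 and 4 and asymptomatic 2, and Lrit1, Lrit2 and Cebpe are near 0 in the other 6.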

How the data were processed

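Each of the 14 libraries, 1 per animal, came with a table of raw read counts per gene that the authors deposited. Per the submitters' processing notes they used FastQC 0.11.5, cutadapt 1.12, HISAT2 2.1.0, HTSeq 0.9.0 and edgeR in R 4.0, on GRCm38. The annotation release and the strand setting are not given in the sources used here, so antisense and overlapping genes may share reads. The 5 HTSeq summary rows were left out: in the 9 libraries they held 4.17% to 9.27% of reads as not aligned, 28.8% to 37.0% as not unique, 2.45% to 3.29% without a feature and 1.38% to 1.94% as ambiguous. Names came from GENCODE for GRCm38, and 193 of 51912 identifiers had none.

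Here edgeR 4.0.16 (R 4.3.3) fitted all 14 libraries at once with filterByExpr, TMM scaling and the quasi-likelihood test, with Benjamini-Hochberg adjustment over all tested genes at 0.05; 3 comparisons were tested. SE is the log2 fold change divided by the square root of F. P-values measure the spread between these animals. The procedure was tested on simulated data. These held no difference by sex, clock or unaligned share, so they cannot vouch for the calls in these libraries. Alternatives used DESeq2 1.42.0 and limma 3.58.1. Single library measures were compared with exact permutation tests (scipy 1.17.1).

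Named genes were the 12 higher and 12 lower with the smallest p (8 and 8 within males) at a mean of at least 1 CPM without gene models, those called without asymptomatic 2, up to 3 per list by p, and Tet2, Ifng, Tnf, Cd8a, Cd4, Cyp1a1, Dbp and Arntl. Not all are described, and other list members were added for their role after their values were seen. The groups compared and the gene lists were chosen with earlier results of these data known. A marker list is not reported here.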

Additional observations from a re-analysis of the deposited data

Results flagged for a closer look

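Library measures and genes named above were examined with Dixon's test. Some of these genes were named because they were called without asymptomatic 2 or divided it from most of its group. The rate that chance gives in this test therefore does not apply. A library stood apart from the rest of its group in 23 of 174 groups examined. In 15 of these the group was the asymptomatic one, and asymptomatic 2 was the library that stood apart in all of them except Osbpl3, where it was asymptomatic 3 (highest at 5.083 CPM). Asymptomatic 2 was highest in the share of mitochondrial genes (4.335%), in the PPARα and fasting genes Acot4 (164.9 CPM), Cyp4a14 (7851 CPM), Ehhadh (2964 CPM) and Pdk4 (16.88 CPM), in the clock gene Arntl (12.35 CPM), in the transporters Mfsd2a (58.41 CPM) and Slc16a7 (157.2 CPM), in Lbp (139.8 CPM), and in Lrit1 (11.65 CPM), Lrit2 (4.353 CPM) and Cebpe (3.529 CPM). It was lowest in C9 (391.6 CPM) and Rps3a3 (0.1176 CPM). The other 8 cases were controls. Control 3 was highest in Atf4 (92.49 CPM), Idh2 (177.7 CPM), Ifng (0.1634 CPM) and Saa1 (101.4 CPM), and lowest in Atf6 (96.31 CPM). Control 4 was lowest in Jun (15.03 CPM) and Xbp1 (125.1 CPM), and control 1 was highest in Ugt2b38 (5.495 CPM).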

How the results depend on the processing

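Counts of genes, members of lists over both sexes (within males for 3 lists) and named genes were recomputed with other scaling (RLE, library totals), low-count filters, tools, a robust spread, only the 9 libraries in the fit, 3 added terms (the share of unaligned reads, the log2 ratio of Dbp to Arntl, sex) and each library left out; the cause of a change was not tested. Calls over both sexes were 118 in DESeq2 and 1299 in limma-voom with quality weights, and 0 to 13 leaving out 1 library (13 without asymptomatic 2). Within males they were 5 without a low-count filter, 27 in DESeq2 and 30 in limma-voom with quality weights, and 0 to 22 leaving out 1 library (22 without asymptomatic 2). Female against male controls gave 154 in DESeq2, 117 in limma-voom with quality weights and 36 to 85 leaving out 1 library (36, 42 and 43 without controls 1, 3 and 4). Genes at unadjusted p under 0.05 over both sexes were 4131 in limma-voom with quality weights, 200 with the unaligned share and 855 to 2665 leaving out 1 library (855, 909 and 2665 without asymptomatic 4, 5 and 2). Within males they were 1205 without a low-count filter, 2855 in limma-voom with quality weights, 144 with the unaligned share and 449 to 1830 leaving out 1 library (458 without control 4, and 535, 1830, 449 and 477 without asymptomatic 1, 2, 4 and 5).

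In the ER stress list, the members higher over both sexes were 0 with the unaligned share (median -0.062, reversed), 8 with sex as a term and 8 to 19 leaving out 1 library (9 and 8 without asymptomatic 1 and 5). Within males they were 18 in limma-voom with quality weights, 1 in limma-voom, 3 with only the 9 libraries, 0 with the unaligned share (median -0.238, reversed) and 0 to 13 leaving out 1 library (0 without control 4, and 4, 13 and 4 without asymptomatic 1, 2 and 5). Lower female-biased genes were 10 in limma-voom with quality weights (median -4.552), 8 in limma-voom (median -4.139), 1 with the unaligned share (median -2.591) and 7 with sex as a term (median -0.622); their median was -3.423 with only the 9 libraries and -6.314 to -5.02 leaving out 1 library. Higher male-biased genes over both sexes were 23 in limma-voom with quality weights (median 3.449) and 0 with the unaligned share (median -0.384, reversed), and their median was 2.974 in limma-voom and 0.922 with sex as a term. Within males they were 0 with the unaligned share (median 0.018) and 2 to 17 leaving out 1 library, with 2 without control 4. Higher Mup genes within males were 2 with the unaligned share (median 0.264) and 6 to 10 leaving out 1 library, with 6 without control 4. Lower PPARα and fasting targets were 12 in limma-voom with quality weights, 3 with a robust spread, 2 with the unaligned share, 2 with the Dbp to Arntl ratio and 1 to 13 leaving out 1 library (1 without control 2, 13 without asymptomatic 2, and 3 without any single one of control 4 and asymptomatic 1, 3, 4 and 5). Of the other list counts given over both sexes, with the unaligned share as a term 1 ribosomal protein and 1 proliferation gene were left, and 0 of the rest. Over all alternatives the lowest and highest counts higher were 0 and 11 for complement, 0 and 12 for acute phase, 0 and 8 for heat shock, 0 and 7 for elastase and serine protease inhibitor, 1 and 6 for proliferation, 1 and 28 for ribosomal protein and 0 and 4 for imprinted genes, and the counts lower were 0 and 11 for mitochondrial fatty acid oxidation, 0 and 4 for immediate early and 0 and 5 for imprinted genes.

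For the genes whose fold change is given, 73 values had 1492 alternatives: 1376 kept their direction and side of the threshold, 102 came to pass it (34 in DESeq2, 47 in limma-voom with quality weights, 16 without asymptomatic 2 and 5 without a low-count filter) and 14 turned. With the unaligned share as a term the log2 fold change turned over both sexes in Hspa5 (-0.170), Hyou1 (-0.233), Manf (-0.101), Pdia6 (-0.062), Hsp90b1 (-0.067), Cd4 (-0.103) and Lbp (0.252), and within males in C4a (-1.06), C9 (-0.023), Cyp7b1 (-0.142), Mup20 (-0.627) and Ugt2b38 (-0.512). Sult2a1 turned to 0.49 with sex as a term and, within males, lay between -0.053 (without asymptomatic 2) and 0.894 leaving out 1 library. No paired analysis was possible because replicate numbers only follow the order of the samples. About depth: at 16.0 to 18.9 M counts per library, 3 counts over the group correspond to 0.0412 CPM in controls and 0.0358 CPM in asymptomatic livers, so transcripts such as Ifng could not be compared. Only 2 control males carry the comparison within males.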
